A study of Mus musculus with 10 samples.

Results

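Orphan and adhesion G protein-coupled receptor genes were followed in microglia, the macrophages that live in brain tissue, after lipopolysaccharide (LPS), an outer membrane molecule of Gram-negative bacteria that immune cells sense. The genes were those whose symbol in the count table starts with Gpr or Adgr and a number, with at least 100 counts summed over all mice. Such a symbol was carried by 95 of 40789 genes, 24 reached the sum, and 22 were kept after Gpr34 and Gpr84 were left out by name. Apart from the genes left out by name, members were thus selected on their summed count over both groups, a rule that does not use the fold change. The choice was made with earlier results of these data known, so it was not blind to the fold changes. Gpr34 was lower in LPS and Gpr84 higher (log2 fold change -2.85 and 2.95), and the shares and medians of the set do not include them. The genes just inside were Gpr4 with 112 counts and Gpr162 with 121, and just outside was Gpr83 with 71. Gpr4 and Gpr162 would not have reached the sum if both groups had held the counts of the lower one. No symbol began with Adgr, because the table uses older names. By Entrez gene ID, 2 of the 22 are adhesion receptors, Gpr56 (now Adgrg1) and Gpr125 (now Adgra3), so the set consists mainly of receptors numbered as orphans.

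The LPS group consisted of 5 mice that received 4 mg/kg LPS into the peritoneum, and the saline group of 5 mice that received saline solution. All 10 were female C57BL6/J mice aged 2-3 months that carried 1 Cx3cr1 allele replaced by enhanced green fluorescent protein (CX3CR1+/egfp), and were killed 24 hours after the injection. Cells with high fluorescence were sorted from the cortex, and each library came from 1 mouse, numbered here within its group in accession order. The reporter also marks other Cx3cr1-expressing myeloid cells, and Cx3cr1 RNA itself was lower in LPS, with a mean of 1476 CPM in LPS against 4134 CPM in saline. Total counts were 12928007 to 15332121 in LPS and 11577295 to 15274421 in saline. Values are counts scaled to a common library size with TMM factors (CPM) unless RPKM, a read density scaled by transcript length and library, is named. Fold changes are LPS over saline from edgeR, with a standard error (SE) over mice, and p-values are adjusted over 13793 genes tested. In RNA from sorted populations, a smaller share of cells with a transcript and less of it per cell cannot be told apart.

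G protein-coupled receptors cross the membrane with a bundle of helices and pass signals from ligands to heterotrimeric G proteins, which set cAMP, calcium or cytoskeletal signals. An orphan is a receptor without an agreed ligand; several genes numbered this way have since been given one. Adhesion receptors carry a long extracellular part that is cut by the protein itself and binds matrix or neighbouring cells. Some proteins that carry the Gpr symbol sit in Golgi or lysosome membranes and are not known to be activated by an outside ligand. In microglia, receptors of this superfamily direct migration, phagocytosis and contact with neurons.

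Proximal promoter bases are shown for the genes with the largest differences in each direction and for Gpr183, a neighbour of Gpr18 that did not share its difference. Each run holds the 250 bases before a RefSeq start site on GRCm38.p6, 5′ to 3′ on the strand of the gene. Capitals mark matches to an interferon response element or an AP-1 element. The Gpr18 window is chr14:121915889-121916138 (minus strand), the Gpr183 window chr14:121965194-121965443 (minus), the Gpr65 window chr12:98268385-98268634 (plus), the Gpr165 window chrX:96713218-96713467 (plus) and the Gpr56 window chr8:94984149-94984398 (plus), 1 of 2 RefSeq starts of that gene.
Gpr18: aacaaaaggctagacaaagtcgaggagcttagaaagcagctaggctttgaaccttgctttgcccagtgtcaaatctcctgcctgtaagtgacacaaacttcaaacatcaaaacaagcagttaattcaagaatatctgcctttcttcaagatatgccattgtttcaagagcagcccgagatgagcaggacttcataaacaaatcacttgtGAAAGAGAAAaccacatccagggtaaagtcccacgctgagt
Gpr183: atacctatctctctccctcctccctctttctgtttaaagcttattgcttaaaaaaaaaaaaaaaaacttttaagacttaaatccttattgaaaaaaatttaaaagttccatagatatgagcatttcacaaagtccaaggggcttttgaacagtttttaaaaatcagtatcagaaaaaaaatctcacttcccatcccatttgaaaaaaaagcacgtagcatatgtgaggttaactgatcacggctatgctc
Gpr65: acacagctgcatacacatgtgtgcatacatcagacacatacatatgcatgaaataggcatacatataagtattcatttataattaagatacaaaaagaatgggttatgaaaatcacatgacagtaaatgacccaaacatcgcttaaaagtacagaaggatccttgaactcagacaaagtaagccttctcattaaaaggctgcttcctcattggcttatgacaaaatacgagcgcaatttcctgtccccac
Gpr165: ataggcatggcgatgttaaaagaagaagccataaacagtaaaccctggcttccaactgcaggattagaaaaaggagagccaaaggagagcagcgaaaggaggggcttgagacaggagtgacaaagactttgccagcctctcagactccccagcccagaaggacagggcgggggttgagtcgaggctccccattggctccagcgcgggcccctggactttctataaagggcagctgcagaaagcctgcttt
Gpr56: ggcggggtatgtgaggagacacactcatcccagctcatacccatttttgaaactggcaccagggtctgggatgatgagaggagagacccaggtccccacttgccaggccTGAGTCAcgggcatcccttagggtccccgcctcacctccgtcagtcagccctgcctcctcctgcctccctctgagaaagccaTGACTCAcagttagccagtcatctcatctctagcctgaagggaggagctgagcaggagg

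Motifs were searched in such windows on both strands, and none of those searched contains another. Of the 22 genes 19 had a RefSeq window, 29 windows in all. The interferon response element, searched as GAAA, 2 free bases and GAAA, was found for Gpr18 and Gpr19. These were 2 of the 29 windows, beside 2.98% of all 32851 windows of that length. In Gpr18 the match began 41 bases before the start. No transcript of the GENCODE annotation held the bases just after that start, whereas 1 did for each other printed window. AP-1, as TGANTCA, was found for Gpr35 and Gpr56, in 2 of the 29 windows, beside 6.75% of all windows. Its matches lay 141 and 59 bases before the second Gpr56 start. NF-kB, as GGGA, 4 free bases and CC, was found for Gpr125, Gpr146, Gpr160, Gpr19 and Gpr35. These were 7 of the 29 windows, beside 17.6% of all windows, and 2 overlapping Gpr19 windows held the same match. A PU.1 element (GAGGAAGT) was found for Gpr137, in 1 of the 29 windows, beside 2.44% of all windows. A cyclic AMP response element (TGACGTCA) was found for 0 of the 19 genes and in 1.55% of all windows. The starts of the Gpr35 window with NF-kB and AP-1 matches and of the Gpr19 window with the interferon match also lacked such a GENCODE transcript. A match describes letters in the window and does not show that a factor bound there.

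The receptor genes divided in LPS. Gpr65 and Gpr18 were 25.2-fold and 25.3-fold higher and Gpr35 3.30-fold higher, while Gpr165, Gpr56, Gpr137b, Gpr155, Gpr137b-ps and Gpr157 were lower by 2.24-fold to 7.32-fold. All 22 genes passed the low-count filter of edgeR; 7 were called higher and 7 lower at an adjusted p under 0.05, where 22.4% and 22.5% of all tested genes were called. Called genes thus made up 63.6% of the set, beside 45% of all genes, and this difference was not tested. The change was called and at least 2-fold higher for 3 genes and at least 2-fold lower for 6 (13.6% and 27.3%, beside 10.4% and 9.93% of all genes), 40.9% in either direction, beside 20.3%. The LPS and saline mice did not overlap for 12 of the 22 genes (54.5%, beside 29.8% of all genes), with LPS above for 6 and below for 6 (27.3% each, beside 14.1% above and 15.7% below over all genes). The median log2 fold change was -0.21 over the set and 0.00 over all genes, and the median absolute value was 1.01 over the set and 0.56 over all genes. Without LPS mice 4 and 5, in which Gpr56 and Gpr165 were lowest, 6 genes were called higher and 7 lower.

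**Figure D1:**
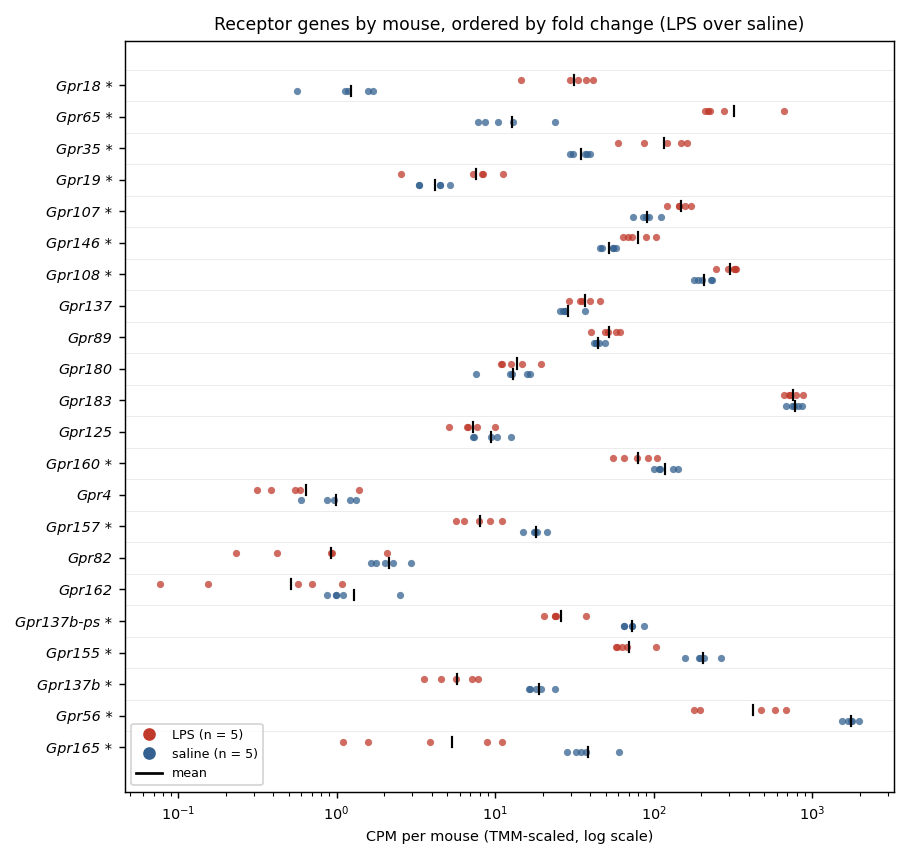
CPM of the 22 receptor genes in each mouse on a log scale (LPS above saline for each gene, black ticks are means, asterisks mark an edgeR adjusted p under 0.05), ordered by fold change. For Gpr18 and Gpr65 the lowest LPS mouse (14.6 and 210.2 CPM) lies far above the highest saline mouse (1.71 and 23.9 CPM), while for Gpr165 and Gpr56 all LPS mice lie below all saline mice.

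The set held 5 surface receptors of immune and vascular cells that respond to protons, lipids or metabolites. Gpr65, Gpr18 and Gpr35 of these rose (60%, beside 22.4% of all genes), and Gpr183 and Gpr4 were not called. Gpr65 (Entrez gene 14744, chromosome 12, 98268635 to 98276722 on GRCm38), a receptor that senses extracellular protons and raises cAMP, had 227, 222, 277, 666 and 210.2 CPM in the LPS mice, against 13.04, 23.9, 10.4, 7.86 and 8.62 CPM in the saline mice. Every LPS mouse lay above every saline mouse, and LPS mouse 4 had more than double the level of any other. The means were 320.5 ± 195 CPM in LPS and 12.8 ± 6.55 CPM in saline (SD, n = 5 each), a log2 fold change of 4.65 ± 0.42 (SE; edgeR adjusted p = 1.06e-06). Among the LPS mice, mouse 4 also had the highest summed level of 5 marker lists of other cell types. It was lowest for the oligodendrocyte and B cell lists, at 90.2 and 73.5 CPM. For the monocyte, neuronal and oligodendrocyte precursor lists it was neither highest nor lowest. The neutrophil sum was 28.1 CPM in mouse 4 and 2.01 to 13.9 CPM in the other LPS mice. The astrocyte sum was 369 CPM and 148 to 239 CPM, with Slc1a3 at 337 CPM in mouse 4. The sums were 12.2 CPM and 6.50 to 11.7 CPM for endothelial cells, and 2.28 CPM and 0.0768 to 1.34 CPM for T and NK cells. For border-associated macrophages the sum was 1874 CPM in mouse 4 and 726 to 1064 CPM in the other LPS mice. Stab1 made up 1842 CPM of it in mouse 4. Of that list Mrc1, Cbr2 and Pf4 were lowest in mouse 4, at 4.37, 2.28 and 0.0634 CPM. Siglec1 was highest there, at 17.3 CPM against 10.8 to 16.2 CPM in the other LPS mice. F13a1 had 7.80 CPM there, against 2.30 to 16.1 CPM, and Cd163 and Lyve1 had 0 CPM there. The part of these cell types in the Gpr65 level was not tested. Without that mouse and LPS mouse 5 the log2 fold change of Gpr65 was 4.26.

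Gpr18 (Entrez gene 110168, chromosome 14, 121911434 to 121915888), a receptor reported to respond to the lipid N-arachidonoyl glycine, had 14.6, 33.6, 29.7, 41.7 and 37.3 CPM in LPS, against 1.58, 1.19, 1.13, 0.561 and 1.71 CPM in saline. The groups were far apart, with LPS mouse 1 the lowest of the LPS mice. The means were 31.4 ± 10.4 CPM in LPS and 1.23 ± 0.4503 CPM in saline (SD, n = 5 each), a log2 fold change of 4.66 ± 0.36 (SE; edgeR adjusted p = 2.14e-07). T cells also express Gpr18; the summed level of 7 T and NK cell genes was 0.0768 to 2.28 CPM in LPS and 0.125 to 2.11 CPM in saline, with the T cell receptor gene Cd3e at means of 0.0825 CPM in LPS and 0.0557 CPM in saline. Their part in the Gpr18 level was not tested.

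Gpr35 (Entrez gene 64095, chromosome 1, 92948052 to 92986391), a receptor for which the tryptophan product kynurenic acid is a proposed ligand, had 149, 162, 121, 59.4 and 87.6 CPM in LPS, against 30.8, 39.8, 29.6, 37.0 and 38.2 CPM in saline. All LPS mice were above all saline mice, with LPS mouse 4 lowest for this gene although it was highest for Gpr65. The log2 fold change was 1.72 ± 0.28 (SE; edgeR adjusted p = 5.22e-05). Gpr4, the other proton-sensing receptor in the set, had 0.317 to 1.38 CPM in LPS and 0.594 to 1.32 CPM in saline. These ranges overlapped, and the gene was not called (log2 fold change -0.63 ± 0.34, edgeR adjusted p = 0.299). Gpr4 is known from endothelial cells, whose markers Pecam1 and Kdr were called lower, with means of 7.05 and 2.37 CPM in LPS and 54.1 and 5.85 CPM in saline, while Cldn5 and Emcn had no count. Their part in the Gpr4 level was not tested.

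Gpr183 (Entrez gene 321019, chromosome 14, 121952331 to 121965193), the oxysterol receptor that guides immune cell migration, had the smallest log2 fold change of the 22. It had 788, 875, 730.5, 666 and 714 CPM in LPS, against 772, 861, 747, 684 and 821 CPM in saline. The groups overlapped almost fully (log2 fold change -0.04 ± 0.09, edgeR adjusted p = 0.801). Gpr18 and Gpr183 both lie inside the span of Ubac2 on chromosome 14 (121878559 to 122021035). Ubac2 had 27.7 to 38.0 CPM in LPS and 27.07 to 33.5 CPM in saline and was not called (edgeR adjusted p = 0.488). Whether counting used strand is not stated, so reads of nested genes cannot be assigned with certainty.

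**Figure D2:**
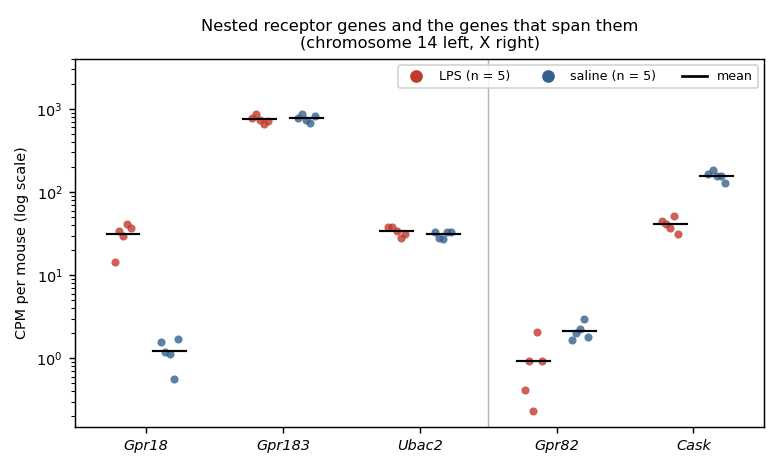
CPM per mouse on a log scale (LPS left, saline right for each gene, black bars are means, n = 5 each) for receptor genes that lie inside another gene and for the genes that span them. Gpr18 stands at 14.6 to 41.7 CPM in LPS and 0.561 to 1.71 CPM in saline, while Gpr183 and Ubac2 overlap between groups; Cask is at 31.3 to 51.9 CPM in LPS and 130 to 184 CPM in saline.

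The oxysterol that activates Gpr183 is made by Ch25h together with Cyp7b1 and broken down by Hsd3b7. Hsd3b7 rose to 237 ± 27.0 CPM in LPS, against 141 ± 11.2 CPM in saline (SD, n = 5 each; edgeR adjusted p = 0.000348), and the groups did not overlap. Ch25h had 11.7, 10.8, 5.20, 2.09 and 0.391 CPM in LPS, against 2.57, 0.424, 0.727, 1.75 and 1.14 CPM in saline, and was called higher with overlapping groups (edgeR adjusted p = 0.0193). Cyp7b1 had 0 CPM in every LPS mouse and a mean of 0.142 CPM in saline, and was not tested. Psap, the precursor of a proposed ligand of other Gpr receptors, fell to 897 ± 112 CPM in LPS, against 1366 ± 330.02 CPM in saline (SD, n = 5 each; edgeR adjusted p = 0.00831).

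Of the adhesion receptors in the set, Gpr56 fell and Gpr125 was not called. Gpr56 (Entrez gene 14766, chromosome 8, 94974756 to 95014208), which binds collagen and transglutaminase and, in microglia, phosphatidylserine on synapses, had 684, 479.6, 581, 196 and 181 CPM in LPS, against 1775, 1992, 1692, 1791 and 1542 CPM in saline. The highest LPS mouse was more than 2-fold below the lowest saline mouse, and LPS mice 4 and 5 were the lowest. The means were 424 ± 227 CPM in LPS and 1758 ± 164 CPM in saline (SD, n = 5 each), a log2 fold change of -2.05 ± 0.41 (SE; edgeR adjusted p = 0.000170), and -1.59 without LPS mice 4 and 5. Gpr125, an adhesion receptor linked to Wnt signalling, had 5.13 to 9.96 CPM in LPS and 7.27 to 12.6 CPM in saline (edgeR adjusted p = 0.190).

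Adhesion receptors filed under other older names, looked up after the symbols had been seen, were read in the same fit. Of 13 such genes 4 were tested, with 2 lower and 0 higher, beside 22.5% and 22.4% of all genes. Emr1, which encodes the macrophage marker F4/80, had 818, 624, 722, 219 and 267 CPM in LPS, against 1040.2, 1165, 1018, 1313 and 845 CPM in saline. All LPS mice were below all saline mice (edgeR adjusted p = 0.0151), and LPS mice 4 and 5 were again the lowest. Lphn2, a latrophilin, fell to 9.10 ± 2.13 CPM in LPS, against 25.7 ± 3.46 CPM in saline (SD, n = 5 each; edgeR adjusted p = 3.00e-05). Emr4 and Lphn1 were not called (edgeR adjusted p = 0.903 and 0.161), Cd97 had means of 0.419 CPM in LPS and 1.44 CPM in saline and was not tested, and Bai2 and Eltd1 had no count.

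**Figure D3:**
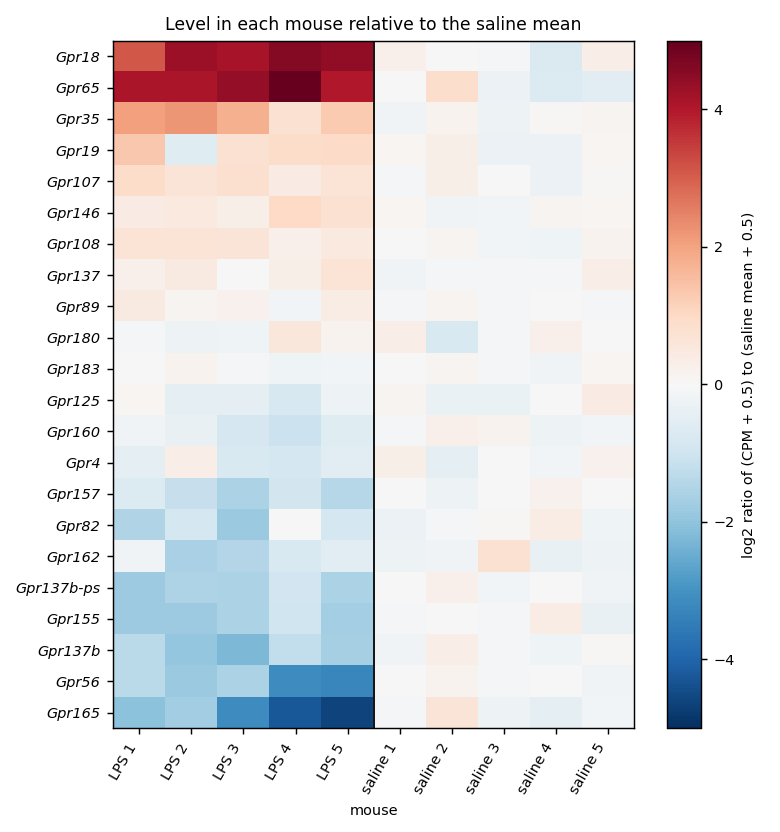
Level of each of the 22 genes in each mouse as log2 ratio of CPM + 0.5 to the saline mean + 0.5 (red above, blue below; LPS mice left of the line, saline mice right). Gpr18, Gpr65 and Gpr35 are above the saline mean in all LPS mice, and the fall of Gpr56 and Gpr165 is deepest in LPS mice 4 and 5.

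Of 7 members assigned to Golgi and lysosome membranes, counting the pseudogene Gpr137b-ps, 2 were higher (28.6%, beside 22.4% of all genes), 3 lower (42.9%, beside 22.5%) and 2 not called. Gpr107 and Gpr108 encode related Golgi proteins. Gpr107 had 173, 145, 158, 121 and 145 CPM in LPS, against 86.1, 111, 90.1, 74.4 and 94.2 CPM in saline, a log2 fold change of 0.70 ± 0.13 (SE; edgeR adjusted p = 0.00122). Gpr108 had 330.3, 328, 320.02, 248 and 294 CPM in LPS, against 203, 229, 190.3, 179.9 and 233 CPM in saline, a log2 fold change of 0.55 ± 0.11 (SE; edgeR adjusted p = 0.00392). Both rose by under 2-fold, without overlap between the groups. Gpr108 lies inside the span of Trip10, which had 7.70 ± 1.83 CPM in LPS and 4.96 ± 1.06 CPM in saline (SD, n = 5 each). Gpr89, a Golgi pH regulator, had 40.6 to 61.6 CPM in LPS and 42.1 to 49.3 CPM in saline and was not called (edgeR adjusted p = 0.180).

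Of the 4 lysosomal entries, Gpr155, Gpr137b and Gpr137b-ps were lower, where 22.5% of all genes were called lower. Gpr155, a lysosomal protein that senses cholesterol, had 57.8, 58.6, 67.8, 104 and 63.1 CPM in LPS, against 197, 209, 195, 265 and 158 CPM in saline. No LPS mouse reached the saline range (log2 fold change -1.55 ± 0.20, edgeR adjusted p = 2.05e-05). Gpr137b, which encodes a lysosomal protein, fell to 5.75 ± 1.77 CPM in LPS, against 18.9 ± 3.10 CPM in saline (SD, n = 5 each; edgeR adjusted p = 4.29e-05). Its relative Gpr137b-ps, a transcribed pseudogene in RefSeq, fell to 26.0 ± 6.6 CPM in LPS, against 72.7 ± 9.17 CPM in saline (SD, n = 5 each; edgeR adjusted p = 1.19e-05). Reads could have been divided between these similar genes, so each value is uncertain. Gpr137, of the same family, had 29.5 to 46.3 CPM in LPS and 25.8 to 36.8 CPM in saline. Its log2 fold change of 0.36 was not called (edgeR adjusted p = 0.0721). The edgeR adjusted p was 0.0308 without saline mouse 5 and 0.0466 without LPS mouse 3. Gpr137 was also called higher with all mice kept and the gene-length trend removed.

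Of 8 other orphan receptors 2 were called higher (25%) and 3 lower (37.5%), beside 22.4% and 22.5% of all genes. Gpr165 (Entrez gene 76206, chromosome X, 96713468 to 96719388) showed the largest fall of the set, with 8.87, 11.1, 3.88, 1.58 and 1.10 CPM in LPS, against 37.3, 60.4, 32.4, 28.4 and 34.97 CPM in saline. All LPS mice were below all saline mice, and the LPS mice differed widely among themselves. The log2 fold change was -2.87 ± 0.66 (SE; edgeR adjusted p = 0.000349), and -2.27 without LPS mice 4 and 5, a change of the fold by more than 1.5 times. Gpr157, a receptor known from the cilium of neural progenitors, had 11.1, 7.91, 5.67, 9.32 and 6.34 CPM in LPS, against 18.4, 15.1, 17.9, 21.1 and 17.7 CPM in saline, again without overlap (edgeR adjusted p = 0.000415).

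Gpr160, a proposed receptor for the CART peptide, had 106, 92.3, 65.5, 55.8 and 78.7 CPM in LPS, against 109.9, 142, 134, 101 and 108 CPM in saline. LPS mouse 1 lay within the saline range, and the call was borderline: edgeR adjusted p = 0.0157 with all mice, 0.0512 without saline mouse 2 and 0.0589 without LPS mice 4 and 5. Gpr146, linked in liver to cholesterol metabolism, rose to 79.8 ± 16.5 CPM in LPS, against 52.3 ± 5.40 CPM in saline (SD, n = 5 each; edgeR adjusted p = 0.00491), with no overlap. Gpr19 had 2.54 to 11.3 CPM in LPS and 3.31 to 5.18 CPM in saline; 4 of 5 LPS mice were above the saline range and LPS mouse 2 below it. Its adjusted p of 0.0415 from edgeR became 0.0564 to 0.104 without LPS mice 1, 3, 4 or 5, each left out alone, and 0.0604 to 0.0954 without saline mice 1, 3, 4 or 5. The call was also lost with all mice kept under library size only, no count filter, limma-voom and mouse number range as a term (adjusted p = 0.0509 to 0.108), and without LPS mice 4 and 5 (0.107).

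The remaining orphans were not called. Gpr180 had 10.99 to 19.5 CPM in LPS and 7.55 to 16.7 CPM in saline (edgeR adjusted p = 0.804). Gpr82, which lies beside Gpr34 inside the span of Cask on chromosome X, had 0.233 to 2.09 CPM in LPS and 1.65 to 2.93 CPM in saline (log2 fold change -1.18 ± 0.46, edgeR adjusted p = 0.0622). Only LPS mouse 4 lay within the saline range, and without it the log2 fold change was -1.74 with an edgeR adjusted p of 0.00676. Cask itself, a scaffold protein gene, fell to 41.4 ± 7.87 CPM in LPS, against 158 ± 19.6 CPM in saline (SD, n = 5 each; edgeR adjusted p = 5.51e-07). Gpr162 had 0.0768 to 1.09 CPM in LPS and 0.873 to 2.505 CPM in saline (edgeR adjusted p = 0.0860; 0.0386 without LPS mouse 1).

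Per length, the order of the receptors differed between the groups. In LPS mice the highest RPKM were those of Gpr183 (260 ± 29.9), Gpr65 (150.1 ± 88.9), Gpr108 (112 ± 13.8) and Gpr56 (81.7 ± 44.0; SD, n = 5). In saline mice they were those of Gpr56 (331 ± 31.0), Gpr183 (262 ± 26.4), Gpr108 (74.99 ± 9.32) and Gpr160 (50.2 ± 8.18; SD, n = 5). Gpr65 had 5.91 ± 3.08 RPKM in saline mice. Within LPS, Gpr65, Gpr108 and Gpr56 differed by about their SD or less and have no firm order, whereas Gpr56 and Gpr183 in saline were apart by more than their SD. With limma on log2(RPKM + 1), 6 of 18 tested members were higher and 7 lower, beside 28.2% and 22.7% of 11147 genes.

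The spread between mice was wider in LPS for most members, and for most genes. The coefficient of variation was higher in LPS for 19 of 22 members (86.4%, beside 65.1% of 13790 tested genes), with a median of 27.4% in LPS and 15.9% in saline over the members and 26.1% in LPS and 20.1% in saline over all genes. Gpr165 (84.3%), Gpr162 (79.9%), Gpr82 (78.6%), Gpr4 (66.3%) and Gpr65 (60.8%) varied most in LPS, and Gpr183 least (10.6%). Gpr162, Gpr82 and Gpr4 averaged under 1 CPM in LPS, where counting error adds to the spread. The summed level of 10 microglial genes also varied in LPS, from 17013 CPM in mouse 4 to 37396 CPM in mouse 1, against 59752 to 67403 CPM in saline. Of the 10, P2ry12, Siglech, Fcrls, Sall1, Csf1r and Cx3cr1 were the 6 called lower, beside 22.5% of all genes. The part of this summed level in the spread of the receptor genes was not tested.

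Markers of other cells were low beside the microglial genes. Sums over the lists were 3.68 to 6.75 CPM in LPS and 4.20 to 9.13 CPM in saline for 8 neuronal genes, 6.50 to 12.2 CPM in LPS and 53.1 to 78.9 CPM in saline for 8 endothelial genes, of which Cldn5 and Emcn had no count, and 0.230 to 2.66 CPM in LPS and 0 to 0.725 CPM in saline for 6 oligodendrocyte precursor genes. They were 148 to 369 CPM in LPS and 371 to 433 CPM in saline for 8 astrocyte genes, mostly from Slc1a3, and 90.2 to 118 CPM in LPS and 103 to 129 CPM in saline for 7 oligodendrocyte genes. The sum of 8 monocyte genes was 75.8 to 212 CPM in LPS, against 13.5 to 22.0 CPM in saline, mainly from Ms4a4c and Fn1, while Ccr2 was lower, with means of 2.45 CPM in LPS and 10.2 CPM in saline, and Ly6c2 was at 0.225 CPM in LPS and 0 CPM in saline. The neutrophil sum was 2.01 to 28.1 CPM in LPS, against 0.162 to 1.12 CPM in saline. The border-associated macrophage sum was 726 to 1874 CPM in LPS, against 583 to 877 CPM in saline. It came mostly from Stab1, and Cd163 and Lyve1 were near 0. Of 5 tested genes of that list 4 were called higher and 0 lower, beside 22.4% and 22.5% of all genes. Stab1 was 1.54-fold higher, with overlap between the groups. Cbr2, Siglec1 and F13a1 were 14.4-fold, 23.9-fold and 12.9-fold higher, without overlap, and Mrc1 was not called. The sum of 5 B cell genes was 73.5 to 143 CPM in LPS, against 74.7 to 110 CPM in saline, nearly all from Cd79b. Whether cells of these types contributed to the higher receptor genes was not tested.

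Genes that carry, end or supply receptor signals were lower more often than higher. Of 112 listed symbols 110 were found among the counted genes, and 73 were tested. Of the tested genes 31 fell (42.5%, beside 22.5% of all genes) and 8 rose (11%, beside 22.4%). The median log2 fold change was -0.45 beside 0.00 over all genes. With the gene-length trend removed 20 fell (27.4%, beside 17.2% of all genes in that fit) and 8 rose (11%, beside 21.4%). Among the G protein alpha subunits 5 of 9 fell and none rose (55.6% lower); Gna12, an alpha subunit that signals to the cytoskeleton, had 15.4, 14.7, 13.8, 14.1 and 9.08 CPM in LPS, against 39.3, 45.9, 32.7, 42.6 and 38.2 CPM in saline (edgeR adjusted p = 6.79e-06). Gna13 and Gnas, which couples to cyclases, fell by smaller amounts (1.60-fold and 1.49-fold lower). Of the beta and gamma subunits 3 of 9 fell, Gng2 and Gnb1 among them, and 2 rose, with Gng5 1.92-fold higher.

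Of 18 tested genes that make, break down or respond to cAMP 8 fell (44.4%, beside 22.5% of all genes) and none rose, among them the cAMP-responding Prkacb, Prkar1a and Rapgef4. Adcy8, a calcium-stimulated adenylyl cyclase, had 1 count over the LPS libraries and 449 over the saline libraries, a ratio of saline over LPS of 456 with an exact 95% interval of 81.4 to 18043 for counting error only. Prkacb, a catalytic subunit of protein kinase A, fell to 23.5 ± 1.92 CPM in LPS, against 56.6 ± 5.97 CPM in saline (SD, n = 5 each; edgeR adjusted p = 3.97e-06). Pde8b, a cAMP phosphodiesterase, was 2.501-fold lower.

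Regulators that end signals included genes called in both directions, beside 22.4% of all genes called higher and 22.5% called lower. Of 8 RGS genes, whose products speed the turn-off of G proteins, 2 rose (25%) and 3 fell (37.5%): Rgs14 was 2.94-fold and Rgs19 1.499-fold higher, and Rgs10 2.08-fold lower. Of 10 receptor kinase and arrestin genes 2 rose and 2 fell (20% each); Arrb1 was 1.88-fold lower, while Arrb2 was 1.36-fold and Grk6 2.30-fold higher. Of 5 tested genes linked to receptor ligands 2 rose and 2 fell. Hsd3b7, which rose, breaks a ligand down, and Pla2g15, a lysosomal phospholipase, was 1.86-fold lower. All 4 tested genes of the receptor sorting family fell. Gprasp1 had 6.86, 9.30, 3.88, 7.42 and 3.68 CPM in LPS, against 57.6, 46.0, 41.9, 69.1 and 55.2 CPM in saline, without overlap (edgeR adjusted p = 5.51e-07), and Armcx2 was 3.62-fold lower.

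**Figure D4:**
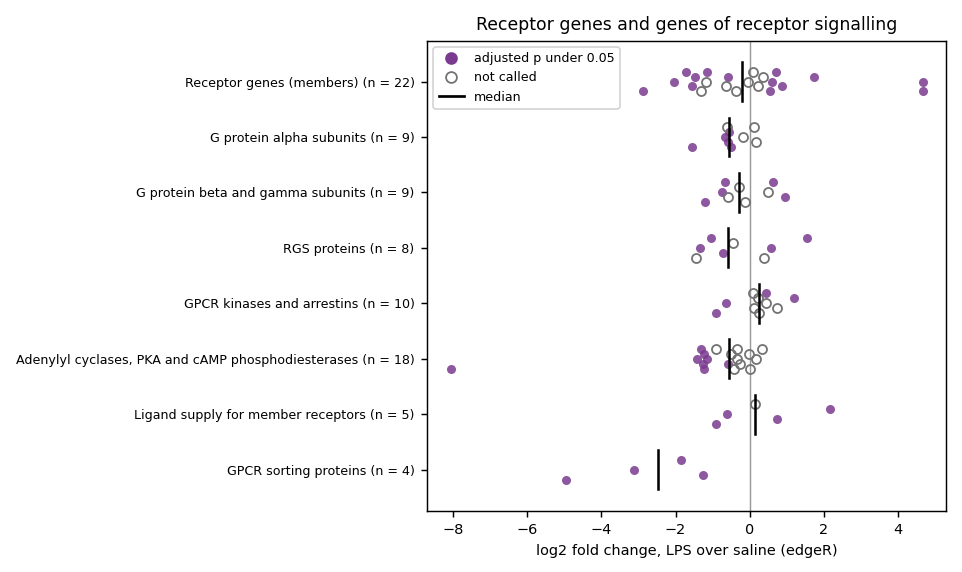
Log2 fold change of LPS over saline from edgeR (x axis) for the 22 receptor genes and the tested genes of the signalling lists described here (rows; filled points have an adjusted p under 0.05, black bars are medians). Points of the cAMP and sorting lists lie mostly left of 0, while receptor genes reach both -2.87 (Gpr165) and 4.66 (Gpr18); the far left point is Adcy8, whose fitted value rests on 1 count in LPS.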

How the data were processed

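RNA was measured in microglia sorted from 10 mice, 1 library each. RNA was amplified (SMARTer) before library preparation (Ovation), per the labels' protocols, which name no molecular identifiers. The authors deposited raw counts per gene, for which the submitters' processing notes list featureCounts and the builds GRCm38 and mm10. Aligner, annotation and strand setting: not given in the sources used here. RPKM tables, normalised by factors not stated, were also deposited. A line without a gene name was left out of the counts and 15 names turned into dates were restored by Entrez ID.

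The count test was that of edgeR 4.0.16, run in R 4.3.3 (TMM, filterByExpr, quasi-likelihood F test, Benjamini-Hochberg adjustment at 0.05, no covariate). SEs come from log2 CPM with a prior count of 2. RPKM was tested with limma 3.58.1 for genes with a mean of at least 1. Alternatives were other scalings and filters, limma-voom, DESeq2 1.42.0, a term for mouse number range, gene length, coding genes and each mouse left out. Scripts used Python 3.11.15. The edgeR, DESeq2 and limma-voom fits were tested on simulated counts, as was limma on simulated CPM. The other alternatives, among them the mouse number term and the gene-length trend, were not tested in this way.

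The members and lists were chosen with earlier results of these data known. The text names members with a mean of at least 20 CPM, the 8 largest called rises and falls, and preset genes. Gpr180, Gpr125, Gpr82, Gpr162 and Gpr4 were added so that no member is missing. In the signalling lists the rule took up to 3 called genes with the smallest adjusted p per list; Ch25h and Cyp7b1 were added after their values were seen. Gprasp2, which it also took, was 31.2-fold lower. Each library came from 1 mouse, so p-values measure the spread between mice. Some genes and 1 signalling list, counted in the totals, are not reported here.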

Additional observations from a re-analysis of the deposited data

Results flagged for a closer look

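In 44 groups of 5 mice (22 members, LPS and saline) the highest or lowest mouse stood apart from the others 7 times. Standing apart was judged by the gap to the next mouse as a share of the CPM range. For independent groups of normally distributed values, chance gives this in about 1 in 20 groups. The 44 groups reuse the same 10 mice, and CPM need not be normally distributed. The 7 cases therefore cannot be read as an excess over chance. LPS mouse 4 was the one that stood apart for 3 members, at 666 CPM for Gpr65, 104 CPM for Gpr155 and 37.4 CPM for Gpr137b-ps, each the highest of its group. LPS mouse 2 was highest for Gpr4 at 1.38 CPM. Among saline mice, mouse 5 was highest for Gpr137 at 36.8 CPM, mouse 2 for Gpr165 at 60.4 CPM and mouse 3 for Gpr162 at 2.505 CPM.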

How the results depend on the processing

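In 21 alternatives 12 of the 14 called members kept their direction and their call in each that tested them (20 for Gpr137b-ps, which is not among protein-coding genes); the exceptions, Gpr160 and Gpr19, are given above. With each mouse left out in turn, 6 to 7 members were called higher and 6 to 8 lower, and 7 to 9 signalling genes were higher and 28 to 34 lower. On the RPKM scale 6 to 7 members were higher and 6 to 8 lower over all alternatives. The number of signalling genes called lower was 20 with the gene-length trend removed, against 31. Members near 0 changed sign without being called; with each mouse left out in turn Gpr183 ranged from -0.098 to 0.00079 and Gpr180 from -0.080 to 0.17. The log2 fold change of Gpr183 was 0.00079 without LPS mouse 4, 0.00044 without saline mouse 2 and 0.046 without LPS mice 4 and 5. That of Gpr180 was -0.0062 with library size only, -0.00041 with mouse number range as a term, -0.080 without LPS mouse 4, -0.061 without saline mouse 2 and -0.17 without LPS mice 4 and 5. That of Gpr89 was -0.030 with the gene-length trend removed. The cause was not tested. Gpr82 was also called lower with DESeq2, with limma-voom and without LPS mice 4 and 5. Within the 3 ranges of mouse numbers in the titles, all 14 called members had the same sign. For the 12 without overlap between the groups this was fixed in advance, and only Gpr160 and Gpr19 could have differed. No paired analysis was possible because the groups share no mouse number. The alternative without LPS mice 4 and 5, the coding RPKM table and the values within ranges were chosen after seeing the data. Members under 1 CPM on average in LPS (Gpr4, Gpr162, Gpr82) rest on few counts, and differences there were not detectable at this depth unless large.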

Other observations

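Some receptor genes under the sum of 100 counts had most of their counts in 1 group. Gpr83, a receptor known from hypothalamus and regulatory T cells, had 0, 0, 6, 39 and 25 counts in LPS mice and 0, 1, 0, 0 and 0 in saline mice, so its counts came from LPS mice 3, 4 and 5. Gpr31b, a receptor for a hydroxy fatty acid in human, had 2, 4, 1, 12 and 2 counts in LPS and 1, 0, 0, 0 and 0 in saline. Gpr21, an orphan, had 0, 0, 1, 0 and 0 counts in LPS and 2, 20, 4, 12 and 1 in saline. None of them passed the filter, and they were picked after their counts were seen. Gpr132, a relative of Gpr65, had 16 counts over the LPS libraries and 11 over the saline libraries. Of the 95 gene rows with such symbols 18 had no count in any library.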
